A study of Homo sapiens with 30 samples.

Results

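Of the 63580 H3K27ac peaks called in OCI-Ly1 cells, 6289 (9.89%) were far from genes. These peaks lay on chromosomes 1 to 22 and X, were under 8000 bp long, overlapped no gene of the RefSeq GRCh38.p14 table, kept at least 10 kb from both ends of every gene and overlapped no H3K4me3 peak. They are called far peaks here. The choice used positions only and no signal value. OCI-Ly1 is an established line of human diffuse large B-cell lymphoma, so every value below describes 1 line. JIB-04 blocks the Jumonji enzymes that remove methyl groups from histones, and the cells were given 150 nM or 500 nM of it or the vehicle alone (0.01% DMSO). H3K27ac and H3K4me3 were each measured by ChIP-seq in 2 libraries of each of the 3 treatments, and the labels carry no genetic change in any group. The labels do not say whether the 2 libraries of a group came from separate cultures, so p-values measure the spread between these libraries, which may be technical.

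H3K27ac, acetylation of lysine 27 on histone H3, is laid down mainly by the coactivators CBP and p300 and marks active promoters and active enhancers. H3K4me3 sits at promoters, so an H3K27ac peak far from genes and without H3K4me3 is the usual sign of a distal enhancer. In mature B cells distal enhancers often lie in clusters and are bound by factors such as PAX5, IKZF1, RUNX and the octamer factors, and an enhancer may act on a gene other than the nearest one. The gene named beside a peak below gives its position and is not shown to be its target.

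The sequenced depth was shallow for single far peaks. Total counts in H3K27ac peaks ran from 4360660 to 5410292 per library, and the median far peak held 15 to 16 reads in a library. Of the 6289 far peaks, 4852 (77.2%) passed the filter on low counts and were tested, and the other 1437 were too weakly covered for a test. B-cell markers were present: MS4A1, CD79A, CD79B, PAX5, BCL6 and CD22 carried both marks at a gene end in DMSO, H3K4me3 at 112 to 481 counts per 1000000 reads (CPM). The T-cell list was not empty: it had H3K4me3 at 3 of 6 genes with a summed 60.2 CPM, and H3K27ac at 3 of 6 with a summed 57.5 CPM. Its highest gene values were 33.0 CPM of H3K4me3 and 48.3 CPM of H3K27ac, the latter above the 41.7 CPM of BCL6. CD4 and TRAT1 had neither mark. The myeloid list had H3K4me3 at 1 of 5 genes and H3K27ac at 0 of 5, and the epithelial list had EPCAM at 70.4 CPM of H3K4me3 and 35.0 CPM of H3K27ac. The 2 H3K27ac libraries at 150 nM differed from each other by more than the DMSO pair or the 500 nM pair did: chi-square per degree of freedom over peaks was 2.36 against 1.27 and 1.21. Reads in peaks on 5 unplaced contigs were also uneven, at 71.5 CPM in DMSO library 2 and 45.9 CPM in the second 150 nM library against 322 to 446 CPM in the other 4.

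The far peaks were short and weak. Their median length was 412 bp, with a range of 208 to 7486 bp, against 526 bp for all H3K27ac peaks. The median level in DMSO among tested far peaks was 4.26 CPM against 6.19 CPM over all tested peaks. Per kilobase of peak the level was 8.56 CPM, against 8.92 CPM for peaks inside genes, 9.70 CPM for the other peaks outside genes, 14.0 CPM for peaks at a gene end and 9.96 CPM for all peaks. The median far peak lay 30.7 kb from the nearest gene of any type (middle 50% from 17.2 to 63.0 kb), 118 kb from the nearest protein-coding gene and 49.2 kb from the nearest H3K4me3 peak. The nearest gene was a long noncoding RNA gene for 2867 far peaks (45.6%), a pseudogene for 1806 and a protein-coding gene for 1383, and 2917 far peaks had a protein-coding gene within 100 kb.

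The far peaks were spread unevenly over the genome. Chromosome 8 held 635 of them, 10.1% of the far peaks against 6.24% of all H3K27ac peaks. Chromosome 13 held 459, and 22.7% of all its H3K27ac peaks were far from genes. On the gene-rich chromosome 19 the figure was 2.02%, with 49 far peaks.

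The strongest far peaks stood in a row on chromosome 8 between CYRIB, a regulator of the actin-remodelling WAVE complex that binds RAC1, and ASAP1, a GTPase-activating protein for ARF. The longest of the 3, chr8:130034785-130040413, had the highest level of any far peak, at 394 and 397 CPM in DMSO, 426 and 387 CPM at 150 nM and 350 and 354 CPM at 500 nM. Its neighbour at chr8:130027916-130031859, 10.8 kb from CYRIB, read 279 and 286 CPM in DMSO, 288 and 269 CPM at 150 nM and 225 and 211 CPM at 500 nM. Both had their lowest values in the 500 nM libraries, and only the second of them fell past the test, by 0.37 on the log2 scale (SE 0.08, edgeR quasi-likelihood adjusted p = 0.00732). The third, chr8:130032219-130034430, read 167 and 184 CPM in DMSO and 139 and 144 CPM at 500 nM, with an adjusted p of 0.0825. The H3K4me3 peak at the CYRIB gene end also fell, by 0.16 (adjusted p = 0.00201). By level per kilobase the next were a peak at chr8:127577135-127579023 on the 5′ side of MYC, 155 kb from the nearest gene-end H3K4me3 peak, at 85.1 and 79.8 CPM in DMSO and 74.4 and 75.7 CPM at 500 nM, and a peak 17.2 kb from TNS3, which encodes the focal-adhesion protein tensin-3, at 129 and 145 CPM in DMSO and 123 and 115 CPM at 500 nM. Neither passed the test. A 7486 bp peak at chr11:110025995-110033480, 58.8 kb from the H3K4me3 peak of the RNase gene ZC3H12C, was level, at 242 and 254 CPM in DMSO and 264 and 256 CPM at 500 nM, while H3K4me3 at the ZC3H12C gene end rose by 0.49 (adjusted p = 5.09e-13).

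At the other end of the range, the tested far peaks with the most empty surroundings were weak. A pair on chromosome 1, chr1:125080072-125080671 and chr1:125080932-125081320, lay about 3508 kb from any gene of the table, beside the centromere, where repeats make read placement uncertain. The first read 6.44 and 6.02 CPM in DMSO and 2.64 and 5.28 CPM at 500 nM. A peak at chr4:179465357-179465750, 630 kb from a gene, read 1.38 and 3.81 CPM in DMSO and 2.07 and 2.15 CPM at 500 nM, so its groups overlapped.

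The question for the 500 nM dose was whether the far peaks gained or lost H3K27ac. As a set they stood slightly lower at 500 nM than in DMSO. For each library, the deviation of every tested far peak from its own mean over the 6 libraries was taken on the scale log2(CPM + 0.5), and the median over far peaks was set against the same median over all tested peaks. The DMSO libraries gave a median deviation of 0.07 and 0.01. The 150 nM libraries gave 0.09 and -0.08, and those of the 500 nM dose -0.03 and -0.06. Both 500 nM libraries were below both DMSO libraries, while the 150 nM libraries lay at the top and the bottom of all 6. The difference between the mean of 500 nM (-0.05) and the mean of DMSO (0.04) was close to the pooled SD within groups, 0.08. An exact permutation test of 2 against 2 libraries cannot go below p = 0.333, and no test was run on this shift.

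**Figure D1:**
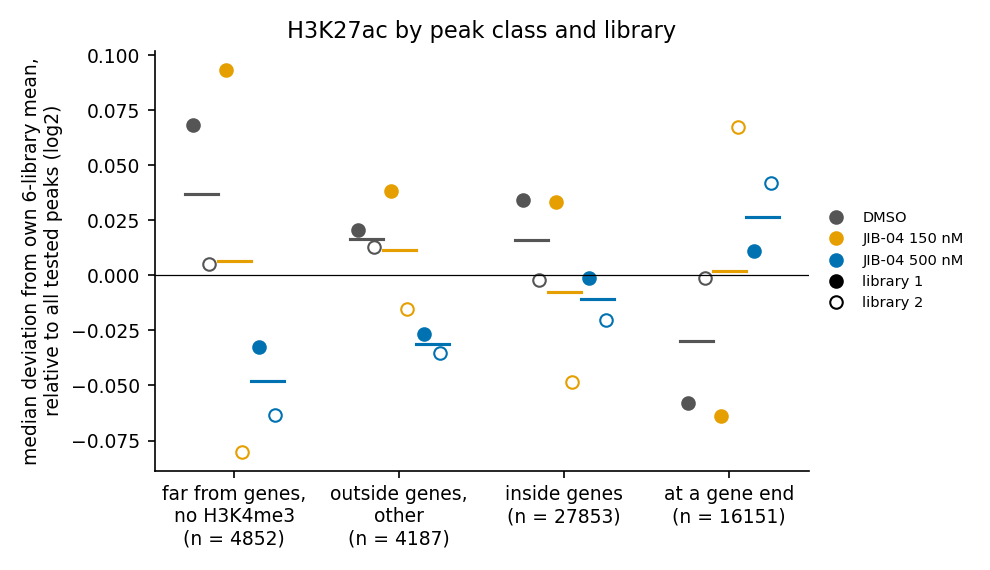
Median deviation of H3K27ac (log2, relative to all tested peaks) in each of the 6 libraries, for far peaks, other peaks outside genes, peaks inside genes and gene-end peaks. Filled and open points are libraries 1 and 2 of each group and short lines are group means; for far peaks the 500 nM libraries sit at -0.03 and -0.06, below both DMSO libraries, and the 150 nM libraries span the whole range.

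Peak by peak, the median log2 fold change of far peaks at 500 nM against DMSO was -0.103, against -0.00399 over all tested peaks, and 60.4% of far peaks were below 0 against 50.5% of all peaks. Both 500 nM libraries were below both DMSO libraries for 1357 far peaks (28.0%), where the share over all tested peaks was 22.2%. Both were above for 737 far peaks (15.2%), against 22.4% of all tested peaks. Peaks at a gene end moved the other way, with a median of 0.06, and peaks inside genes had a median of -0.03. Far peaks held 4.96% and 4.76% of all peak reads in the DMSO libraries, 5.05% and 4.48% in the 150 nM libraries, and 4.63% and 4.54% in the 500 nM libraries. Gene-end peaks held 45.7% and 46.8% for DMSO, 45.5% and 48.6% for the lower dose, and 47.1% and 47.8% for the higher dose, the reverse of the order of far peaks over the 6 libraries. The part of this balance between peak classes in the lower far-peak levels was not tested. Without DMSO library 1, the median of far peaks minus that of all peaks went from -0.10 to -0.05.

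The lower level at 500 nM was present in every band of distance from genes. The median log2 fold change was -0.08 for the 1597 tested far peaks at 10 to 20 kb from a gene, -0.10 for 1773 at 20 to 50 kb, -0.15 for 928 at 50 to 100 kb, -0.14 for 385 at 100 to 200 kb and -0.20 for 169 at 200 kb and over. The spread between replicate libraries grew along the same bands, from a pooled SD of 0.05 to 0.17, and the second 150 nM library was the lowest of the 6 beyond 20 kb, at -0.19 in the farthest band. It was also seen in the medians by level: with peaks split into 5 equal classes of mean H3K27ac level, from lowest to highest, the medians of far peaks were -0.14, -0.13, -0.09, -0.11 and -0.09, while peaks inside genes had -0.04, -0.03, -0.03, -0.04 and -0.03. In the lowest class the libraries overlapped, with a deviation of -0.05 in the second DMSO library and -0.02 in the first 500 nM library. At the distance limit itself, 214 tested far peaks between 10 and 11 kb from a gene had a median of -0.12 and 232 tested peaks between 9 and 10 kb, just outside the limit, had -0.02. At the length limit there was 1 far peak within 1000 bp of the limit, the ZC3H12C one, and 18 peaks of 8000 bp and over at the same distance had a median of -0.01. The 685 distant peaks left out because they overlapped an H3K4me3 peak had a median of -0.04.

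**Figure D2:**
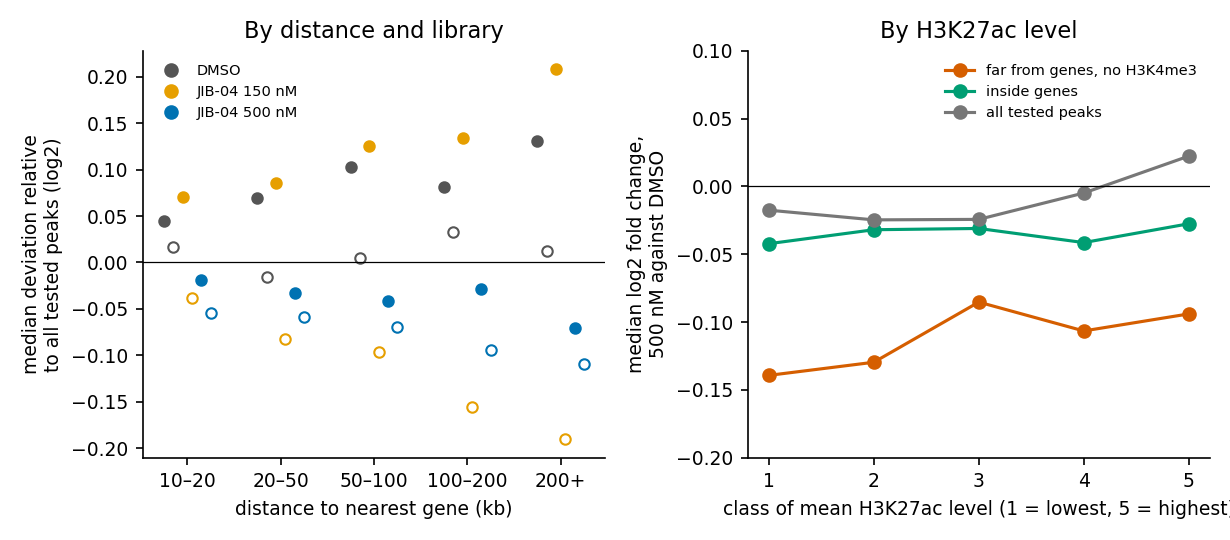
Left, the median deviation of far peaks in each library (log2, relative to all tested peaks; filled points library 1, open points library 2) in 5 bands of distance to the nearest gene. Right, the median log2 fold change of 500 nM against DMSO in 5 equal classes of mean H3K27ac level; far peaks lie between -0.14 and -0.09 and peaks inside genes between -0.04 and -0.03.

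By chromosome, far peaks on chromosome 8 had the lowest median, -0.24 over 477 tested peaks, where all tested H3K27ac peaks of that chromosome had -0.10. Chromosome 7 followed, at -0.21 over 305 tested far peaks and -0.06 over all its tested peaks. Far peaks on chromosome 6 were near 0, at -0.01 over 352 peaks, and those on chromosome 1 stood at -0.03 over 400. These are descriptions of 6 libraries and were given no test.

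Far peaks passing the test one by one were few. At 500 nM against DMSO, 36 of 4852 tested far peaks (0.742%) had a Benjamini-Hochberg adjusted p under 0.05 in edgeR's quasi-likelihood test, where the share over all tested H3K27ac peaks was 0.923%. Of these, 23 rose (0.474%, with 0.692% over all peaks) and 13 fell (0.268%, with 0.231% over all peaks). The count for far peaks was therefore near the background. At an unadjusted p under 0.05 there were 545 far peaks (11.2%), where all tested peaks gave 11.5%. Of these, 195 were higher (4.02%, with 6.09% over all peaks) and 350 were lower (7.21%, with 5.39% over all peaks), a balance opposite to that of the adjusted calls. The 36 calls depended on single libraries: 2 rises and 0 falls stayed past the threshold in all 6 fits that left out 1 library. The count was 6 without the second 500 nM library, 7 without the second DMSO library, 10 without the first 500 nM library and 15 without the first DMSO library, and it was 160 and 157 when the first or the second 150 nM library was left out. The balance of the calls also moved with the fit. It was 78 higher and 82 lower without the first 150 nM library, 75 and 82 without the second, 80 and 106 when the 4 libraries of the comparison were fitted alone, 30 and 63 with a term for the contig split, and 10 and 12 at a mean count of at least 50. DESeq2's Wald test called 4 far peaks, where it called 0.211% of all tested peaks.

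**Figure D3:**
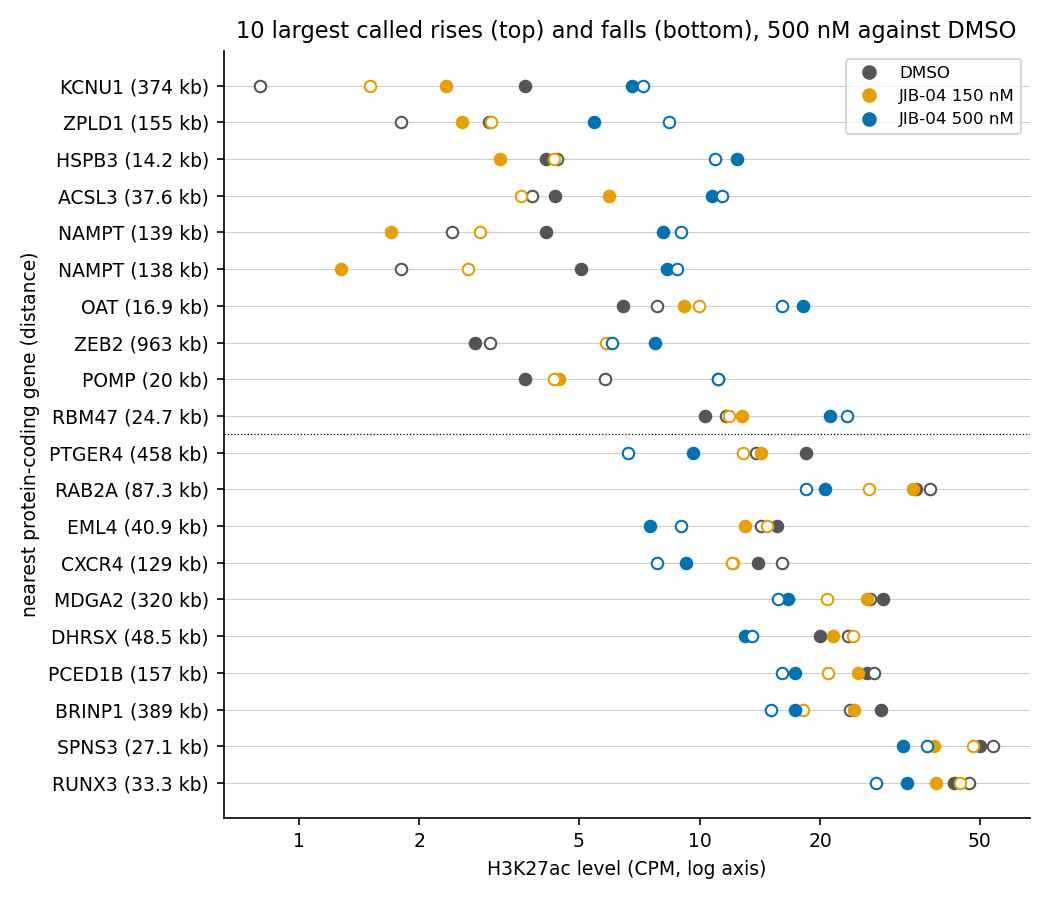
H3K27ac level (CPM, log axis) in each library for the 10 far peaks with the largest called rise and the 10 with the largest called fall at 500 nM, named by the nearest protein-coding gene and its distance. Filled and open points are libraries 1 and 2; in all 20 rows both 500 nM points lie on one side of both DMSO points.

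The called rises were larger in fold and started from lower levels than the called falls. The method favours this contrast: a peak weak in DMSO can pass the count filter through its 500 nM libraries, and a weak peak needs a larger fold to be called. The 5 level classes, from lowest to highest, held 1325, 1226, 1117, 773 and 411 tested far peaks. Rises numbered 0, 2, 6, 8 and 7 and falls 0, 0, 0, 7 and 6. Over all tested peaks, with 10807 or 10808 in each class, rises numbered 3, 21, 72, 133 and 145 and falls 0, 0, 5, 38 and 82. Few or no falls in the lower classes were therefore not particular to far peaks. The 23 far peaks that rose had log2 fold changes from 0.41 to 1.69 and a median DMSO level of 9.13 CPM, and the 13 that fell ranged from -0.97 to -0.37 with a median of 27.7 CPM. The clearest rise was at chr5:54440193-54441521, 14.2 kb from HSPB3, which encodes a small heat shock protein. It read 4.14 and 4.41 CPM in DMSO, 3.19 and 4.34 CPM at 150 nM and 12.4 and 11 CPM at 500 nM. Only the 500 nM libraries were high, and the log2 fold change was 1.44 (SE 0.27, adjusted p = 0.00122), past the threshold in each of the 6 fits without 1 library. The other rise with that property was at chr10:124379030-124380448, 16.9 kb from OAT, the mitochondrial ornithine aminotransferase gene. It read 6.44 and 7.82 CPM in DMSO, 9.14 and 9.99 CPM at 150 nM and 18.1 and 16.0 CPM at 500 nM, with a log2 fold change of 1.25 (SE 0.22, adjusted p = 0.000505). Its 150 nM libraries lay between the other groups. H3K4me3 at the OAT gene end was not called (-0.07).

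RBM47, which encodes an RNA-binding protein that takes part in splicing and RNA editing, had a rise in both marks. The far peak chr4:40655518-40657236, 24.7 kb from the gene, read 10.3 and 11.6 CPM of H3K27ac in DMSO, 12.7 and 11.9 CPM at 150 nM and 21.1 and 23.3 CPM at 500 nM, a log2 fold change of 1.01 (SE 0.19, adjusted p = 0.00131). The H3K4me3 peak at the RBM47 gene end, chr4:40629499-40630848, read 6.78 and 5.89 CPM in DMSO, 6.90 and 8.00 CPM at 150 nM and 15.6 and 14.5 CPM at 500 nM, a log2 fold change of 1.24 (adjusted p = 2.95e-10). Both 500 nM libraries stood apart from the other 4 in each mark. ACSL3, a long-chain acyl-CoA synthetase gene, was the nearest protein-coding gene to the rise at chr2:222982224-222983184, where H3K27ac read 4.37 and 3.81 CPM in DMSO, 5.95 and 3.58 CPM at 150 nM and 10.7 and 11.3 CPM at 500 nM (log2 fold change 1.43, adjusted p = 0.00234). The nearest gene-end H3K4me3 peak there belonged to KCNE4, a potassium channel subunit gene 69.8 kb away, and rose by 1.72 (adjusted p = 0.000578) from a low 0.490 and 0.884 CPM in DMSO to 2.13 and 2.35 CPM at 500 nM.

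The gene-end H3K4me3 peaks of RBM47 and of RUNX3-AS1 cover a start that RefSeq gives to RBM47 and to RUNX3. The far peak beside RBM47 rose and that beside RUNX3 fell, and these promoters are printed here. The RUNX3 start lies inside the gene: its H3K4me3 peak lay 67.3 kb from the far peak, while the nearest end of RUNX3 lay 33.3 kb from it. Windows are from RefSeq on GRCh38.p14, 5′ to 3′ on the gene's strand (the minus strand for both), 250 bases before to 50 after the start. CG dinucleotides are in capitals. RBM47 is chr4:40630545-40630844 and RUNX3, which encodes a Runt-domain transcription factor, is chr1:24930227-24930526.
RBM47: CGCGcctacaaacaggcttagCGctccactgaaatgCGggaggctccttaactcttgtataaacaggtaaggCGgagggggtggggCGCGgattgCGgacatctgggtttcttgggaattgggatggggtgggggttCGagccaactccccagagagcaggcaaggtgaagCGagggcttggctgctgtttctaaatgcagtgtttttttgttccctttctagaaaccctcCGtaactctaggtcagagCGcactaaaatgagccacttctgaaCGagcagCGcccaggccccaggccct
RUNX3: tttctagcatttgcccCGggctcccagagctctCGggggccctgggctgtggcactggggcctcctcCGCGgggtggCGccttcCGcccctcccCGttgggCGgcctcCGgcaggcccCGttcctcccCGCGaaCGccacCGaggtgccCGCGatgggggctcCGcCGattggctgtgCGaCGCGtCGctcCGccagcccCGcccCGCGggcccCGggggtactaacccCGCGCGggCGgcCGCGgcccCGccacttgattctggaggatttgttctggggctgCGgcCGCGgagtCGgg
The RBM47 window holds 14 CG dinucleotides, the median of the 35116 promoters of this length, and the RUNX3 window holds 38, more than 90.1% of them. The search covered both strands for the TATA box TATAAA, found in 11.5% of all promoters, the GC box GGGCGG, found in 45.0%, the E-box CACGTG, found in 7.26%, and the octamer ATGCAAAT, found in 1.77%. The GC box and the E-box each contain a CG counted above. The RBM47 window holds the TATA box letters and the RUNX3 window holds the GC box letters, and neither holds the octamer or the E-box. RefSeq gives RBM47 a second start inside the same H3K4me3 peak, with the window chr4:40629815-40630114, which holds 19 CG and the GC box letters and no TATA box letters. These are letters in a window and not sites shown to be used.

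Other rises lay in longer gene-free stretches. A pair of neighbouring peaks on chromosome 7, about 139 kb from NAMPT, which encodes the rate-limiting enzyme of NAD salvage, rose together. The peak at chr7:106425247-106425781 read 4.14 and 2.41 CPM in DMSO, 1.70 and 2.83 CPM at 150 nM and 8.10 and 9.0 CPM at 500 nM (log2 fold change 1.40, adjusted p = 0.0173). The one at chr7:106424337-106425034 read 5.06 and 1.81 CPM in DMSO, 1.27 and 2.64 CPM at 150 nM and 8.29 and 8.80 CPM at 500 nM (1.35, adjusted p = 0.0368). H3K4me3 at the NAMPT gene end was not called, at -0.05. The largest fold was at chr8:37310353-37310928, 374 kb from KCNU1, with 3.68 and 0.802 CPM in DMSO, 2.34 and 1.51 CPM at 150 nM and 6.78 and 7.24 CPM at 500 nM (1.69, adjusted p = 0.0220), where the DMSO libraries differed widely from each other on few reads. The peak at chr3:102229468-102230148, 155 kb from ZPLD1, read 2.99 and 1.81 CPM in DMSO and 5.46 and 8.41 CPM at 500 nM (1.54, adjusted p = 0.0223). Near POMP, the proteasome maturation factor gene, chr13:28638056-28639165 read 3.68 and 5.82 CPM in DMSO, 4.46 and 4.34 CPM at 150 nM and 11.1 CPM in both 500 nM libraries (1.21, adjusted p = 0.0107), while H3K4me3 at the POMP gene end fell by 0.20 (adjusted p = 6.08e-05). The peak at chr2:145483607-145484107, 963 kb from ZEB2, was the only one of these 10 with both 150 nM libraries close to the 500 nM ones, at 2.76 and 3.01 CPM in DMSO, 5.95 and 5.84 CPM at 150 nM and 7.72 and 6.06 CPM at 500 nM. Its call at 500 nM was marginal (1.25, adjusted p = 0.0499).

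The called falls were at stronger peaks, with the limit on weak peaks given above. The fall with the smallest adjusted p was at chr8:60426923-60429595, 13.1 kb from the noncoding RNA gene LINC01301 and 87.3 kb from RAB2A, a small GTPase gene of the early secretory pathway. It read 34.7 and 37.5 CPM in DMSO, 34.0 and 26.4 CPM at 150 nM and 20.5 and 18.4 CPM at 500 nM, and fell by 0.89 (SE 0.16, adjusted p = 0.000456). The 500 nM libraries were the lowest of the 6 and DMSO the highest. The largest fall in fold was at chr5:40220426-40221502, 458 kb from PTGER4, the gene of a prostaglandin E2 receptor, with 18.4 and 13.8 CPM in DMSO, 14.2 and 12.8 CPM at 150 nM and 9.61 and 6.65 CPM at 500 nM (-0.97, adjusted p = 0.0145). A peak 40.9 kb from EML4, a microtubule-associated protein gene, at chr2:42127055-42128430, went from 15.6 and 14.2 CPM to 7.54 and 9.0 CPM (-0.85, adjusted p = 0.0393). The peak at chr2:136247181-136248005, 129 kb from CXCR4, a chemokine receptor gene that marks germinal centre dark zone B cells, went from 14.0 and 16.0 CPM to 9.23 and 7.82 CPM (-0.82, adjusted p = 0.0486). H3K4me3 at the CXCR4 gene end was level, between 255 and 266 CPM in the 6 libraries. CXCR4 had 12 other far peaks within 100 kb, and the summed H3K27ac of the 11 tested ones was not lower: it was 83.0 and 80.4 CPM in DMSO and 86.5 and 85.3 CPM at 500 nM.

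The fall at chr1:24998434-25000110 lay 33.3 kb from RUNX3. It read 43.2 and 46.9 CPM in DMSO, 38.9 and 44.5 CPM at 150 nM and 33.0 and 27.6 CPM at 500 nM (-0.57, SE 0.14, adjusted p = 0.0220). The nearest gene-end H3K4me3 peak, at RUNX3-AS1 and over the RUNX3 start inside the gene printed above, was level at 163 to 171 CPM in the 6 libraries. At SPNS3, which encodes a member of the spinster family of lysolipid transporters, the marks moved in opposite directions. The far peak chr17:4405069-4406818, 27.1 kb away, read 50.1 and 54.0 CPM of H3K27ac in DMSO, 38.5 and 48.1 CPM at 150 nM and 32.2 and 37.0 CPM at 500 nM (-0.59, adjusted p = 0.0119), and H3K4me3 at the SPNS3 gene end went from 10.0 and 7.66 CPM in DMSO to 31.6 and 29.1 CPM at 500 nM (1.76, adjusted p = 4.39e-20). The peak at chrX:2549457-2550772, 48.5 kb from DHRSX, lies in the pseudoautosomal region, where reads of X and Y copies cannot be told apart. It went from 20.0 and 23.5 CPM to 13.0 and 13.5 CPM (-0.72, adjusted p = 0.0357), and the gene-end H3K4me3 peak of DHRSX and ZBED1 fell by 0.29. The far peak 157 kb from PCED1B fell by 0.68 and the H3K4me3 peak of PCED1B-AS1 by 0.55, from 119 and 124 CPM to 84.3 and 81.1 CPM. The last pair, near MDGA2 (-0.78, adjusted p = 0.00799) and BRINP1 (-0.67, adjusted p = 0.0446), lay 320 kb and 389 kb from those genes.

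H3K4me3 at the nearest gene end was measured in other libraries than H3K27ac. The choice of far peaks used the positions of H3K4me3 peaks, to leave out overlaps, and not their levels under treatment. Of all tested H3K4me3 peaks, 39.4% were called at 500 nM against DMSO, 20.7% higher and 18.7% lower. For the 23 far peaks that rose, the nearest gene-end H3K4me3 peak rose with 3, fell with 5 and was not called with 15. For the 13 that fell, it fell with 6, rose with 1 and was not called with 6. These counts have no limit on distance: the nearest gene-end peak was within 100 kb for 15 of the 23 and 8 of the 13. Among tested far peaks with one within 100 kb, it was called lower for 771 and higher for 264. The share over all H3K4me3 peaks is therefore not the background for these counts. Beyond the calls, the median H3K27ac log2 fold change was -0.16 for the 771 tested far peaks whose nearest gene-end H3K4me3 peak, within 100 kb, was called lower, and 67.3% of them were below 0. It was -0.02 for the 264 whose nearest gene-end H3K4me3 peak was called higher, of which 51.9% were below 0, and -0.04 for the 1014 where it was not called. Far peaks share these H3K4me3 peaks, 218, 113 and 353 distinct ones, so they are not independent points and the order of the medians was given no test. Within 50 kb the medians were -0.15, -0.06 and -0.03 in the same order.

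**Figure D4:**
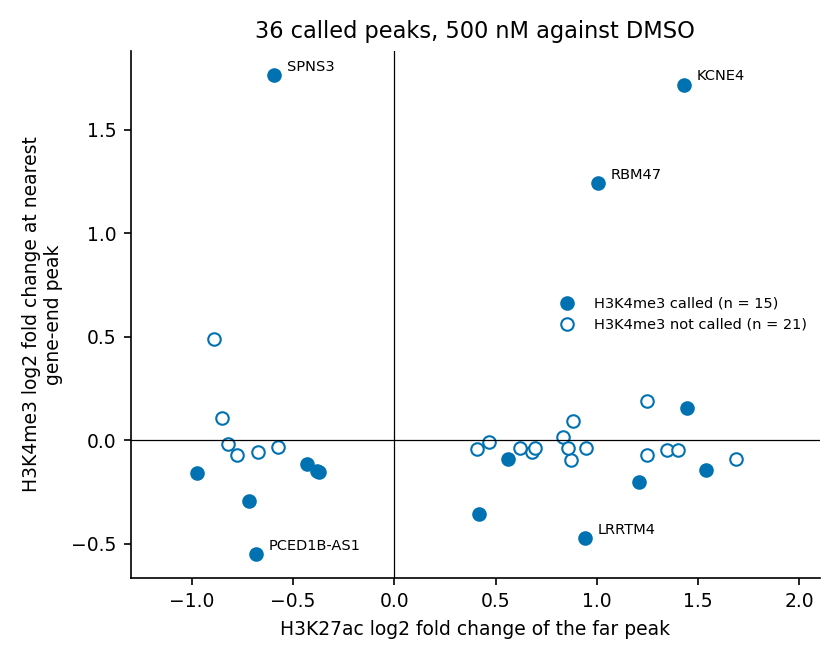
H3K4me3 log2 fold change at the nearest gene-end peak against the H3K27ac log2 fold change of the 36 far peaks called at 500 nM against DMSO; filled points have a called H3K4me3 change. RBM47 and KCNE4 lie in the quadrant where both marks rose and SPNS3 lies where H3K27ac fell and H3K4me3 rose.

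At 150 nM, no far peak was called against DMSO by edgeR (0 of 4852, where all tested peaks gave 0.00185%), and DESeq2 called 0. At an unadjusted p under 0.05 there were 175 far peaks (3.61%), and the share over all tested peaks was 3.94%. The median log2 fold change was -0.04, and -0.01 over all tested peaks. The 2 libraries of this dose do not give one picture, with median far-peak deviations, set against all tested peaks, of 0.09 and -0.08. Of the far peaks with the smallest p, none passed the adjustment, with an adjusted p of 1 for each. A peak 10.0 kb from CREG1, a gene of the endosomal and lysosomal pathway, at chr1:167563779-167565282, read 10.8 and 12.2 CPM in DMSO, 5.74 and 7.16 CPM at 150 nM and 19.8 and 22.9 CPM at 500 nM. The 3 groups did not overlap and 150 nM was the lowest. A peak 194 kb from SLITRK6 on chromosome 13, chr13:85596955-85598460, had the same order on one side only, with 18.4 and 17 CPM in DMSO, 9.99 and 11.3 CPM at 150 nM and 19.4 and 18.2 CPM at 500 nM. A weak peak 15.4 kb from the pseudogene ZNF815P read 1.15 and 0.802 CPM in DMSO and 3.61 and 3.39 CPM at 150 nM. Another read 0.920 and 1.20 CPM in DMSO and 5.10 and 2.26 CPM at 150 nM. It lay 66.5 kb from MIR3668 and 897 kb from the nearest protein-coding gene, the transcriptional coregulator gene CITED2.

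Between the 2 doses, 66 far peaks were called (1.36%, where all tested peaks gave 1.27%), 49 higher at 500 nM (1.01%, with 1.09% over all peaks) and 17 lower (0.350%, with 0.185% over all peaks). The median log2 fold change was -0.06, and 0.01 over all tested peaks. This comparison shares the 500 nM libraries with the one against DMSO, and 23 far peaks were called in both, 19 higher and 4 lower. The CREG1 peak rose from 150 nM to 500 nM by 1.71 (SE 0.22, adjusted p = 2e-07) and from DMSO to 500 nM by 0.88 (adjusted p = 0.0094). A peak near PGRMC1, a haem-binding membrane protein gene, at chrX:119205594-119206593, read 5.06 and 2.81 CPM in DMSO, 1.49 and 1.13 CPM at 150 nM and 5.65 and 8.60 CPM at 500 nM, and rose by 2.43 between the doses (adjusted p = 0.000136). Its DMSO libraries were nearer to the 500 nM ones than to those at 150 nM. A peak 17.6 kb from DUSP5, a nuclear phosphatase gene of the ERK pathway, at chr10:110529144-110529897, read 2.76 and 1.60 CPM, 1.70 and 0.754 CPM, and 5.84 and 5.48 CPM in the same order (2.21, adjusted p = 0.00315), and H3K4me3 at the DUSP5 gene end rose by 0.45 at 500 nM against DMSO (adjusted p = 9.1e-12). Small peaks 27.2 kb from KLHL38 and 200 kb from CDH18 rose by 2.51 and 2.43 from levels under 1.1 CPM at 150 nM. In DMSO the first read 1.38 and 0.802 CPM and the second 1.38 and 1.40 CPM. At 500 nM they read 3.77 and 3.32 CPM, and 3.20 and 5.67 CPM. Both passed the count filter only through their 500 nM libraries, so a rise was the only change that could be called. The DUSP5 peak also needed its 500 nM libraries to pass, with 12 and 8 reads in DMSO and 8 and 4 at 150 nM. Its call has the same limit. Among the larger falls were those 142 kb from MAP3K1 (-1.09), 32.1 kb from PRUNE2 (-0.92) and 262 kb from MDGA2 (-0.88), and on chromosome 14 at chr14:83357164-83358423 (-0.96). The count of 66 was 184 without the first 150 nM library, 31 without the first 500 nM library and 18 without the second. Its balance was 33 higher (0.680%) and 34 lower (0.701%) with a term for the contig split, against 1.25% and 0.437% of all tested peaks.

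Far peaks within 100 kb of germinal centre B-cell transcription factor genes had a median below 0 at 500 nM, with differences between genes. Of 26 such genes, 12 had a far peak in this window, 56 in all and 53 tested, with 0 called higher, 2 called lower by edgeR (0 by DESeq2; 4 higher and 8 lower at an unadjusted p under 0.05) and a median of -0.16 against -0.10 for all tested far peaks. The calls were 3.77% of the tested peaks of the list, with 0.231% lower over all tested peaks. At the unadjusted p, 15.1% were lower, against 7.21% of all far peaks, and 32 of the 53 were below 0 (60.4%), the same share as over all tested far peaks. The 2 calls were the RUNX3 peak and a peak 33.5 kb from IKZF1, the Ikaros gene, at chr7:50265926-50269963, with 116 and 116 CPM in DMSO, 112 and 121 CPM at 150 nM and 88.7 and 89.2 CPM at 500 nM (-0.38, SE 0.10, adjusted p = 0.0416). The 500 nM libraries were the lowest of the 6. Summed over its 9 far peaks, IKZF1 had 153 and 153 CPM in DMSO, 147 and 156 CPM at 150 nM and 115 and 118 CPM at 500 nM. The called peak is part of this sum and holds most of it. RUNX3 summed over 3 far peaks, its called peak among them, to 123 and 136 CPM, 120 and 146 CPM, and 101 and 95.4 CPM in the same order. Around IRF4, a factor of germinal centre exit and plasma cell fate, the sum over 6 far peaks went the other way, from 202 and 222 CPM in DMSO through 205 and 211 CPM to 249 and 252 CPM, with no single peak called. The strongest far peaks of this list were 2 near ID3, an inhibitor of E proteins such as TCF3. They read 150 and 163 CPM in DMSO and 156 and 158 CPM at 500 nM in the first and 141 and 155 CPM and 122 and 128 CPM in the second, with no call for either.

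Far peaks near B-cell surface and signalling genes gave no call at 500 nM against DMSO with edgeR or DESeq2, and 2 higher (3.23%) and 4 lower (6.45%) at an unadjusted p under 0.05, where all tested far peaks gave 4.02% and 7.21%. There were 66 of them around 15 of 38 genes, 62 were tested, and their median was -0.08. The strongest were a pair near RHOH, a haematopoietic GTPase gene, at 73.6 and 81.2 CPM in DMSO and 71.0 and 66.9 CPM at 500 nM, and at 58.2 and 58.8 CPM and 55.4 and 51.8 CPM. Summed over 6 far peaks, CCR7, a chemokine receptor gene, had 86.4 and 86.8 CPM in DMSO and 103 and 101 CPM at 500 nM. Against 150 nM, edgeR called 1 of the 62 higher and DESeq2 called 0, where edgeR called 1.09% of all tested peaks higher. The call was near MS4A1, the CD20 gene, at 8.97 and 12.4 CPM in DMSO, 8.50 and 8.86 CPM at 150 nM and 17 and 14.1 CPM at 500 nM.

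Around NF-kB and immediate early genes the median was above 0. Of 22 genes, 9 had far peaks, 35 in all and 32 tested. At 500 nM against DMSO, 1 was called higher and 0 lower by edgeR, and 0 by DESeq2. At an unadjusted p under 0.05 in edgeR's test, 4 were higher and 2 lower. The median was 0.16, against -0.10 for all tested far peaks. Of the 32, 9 were below 0 (28.1%), against 60.4% of all tested far peaks. The single call was 3.12% of the list, with 0.692% higher over all tested peaks, and at the unadjusted p 12.5% were higher and 6.25% lower, against 4.02% and 7.21% of all far peaks. Of the 32, 13 lay around TNFAIP3 and are not independent of one another. The call was at chr6:137903549-137905896, 20.2 kb from TNFAIP3, which encodes the NF-kB inhibitor A20. It read 28.0 and 28.9 CPM in DMSO, 29.3 and 26.4 CPM at 150 nM and 42.6 and 41.5 CPM at 500 nM (0.56, SE 0.14, adjusted p = 0.0307), and H3K4me3 at the TNFAIP3 gene end fell slightly (-0.09, adjusted p = 0.0496). The 2 strongest far peaks of TNFAIP3 did not follow it, at 85.5 and 89.0 CPM in DMSO and 73.7 and 72 CPM at 500 nM in one and 69.2 and 77.2 CPM and 80.1 and 74.1 CPM in the other. Against 150 nM, edgeR called 1.09% of all tested peaks higher, and DESeq2 called 0 of the 32. By edgeR the TNFAIP3 peak and 2 more were called higher. One lay near EGR2, an immediate early zinc finger factor gene, at 23.4 and 22.5 CPM in DMSO, 22.3 and 17.2 CPM at 150 nM and 32.0 and 31.1 CPM at 500 nM, and the other near ATF3, a stress-responsive factor gene, at 3.68 and 3.01 CPM, 2.34 and 2.07 CPM, and 6.03 and 6.26 CPM.

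The remaining lists gave no call at 500 nM against DMSO with edgeR or DESeq2, and at an unadjusted p under 0.05 they gave 3 lower for apoptosis (13.0%), 3 lower for stress and hypoxia (16.7%), both against 7.21% of all far peaks, 1 higher for plasma cell genes and 0 for Jumonji genes. Apoptosis regulators had 23 tested far peaks around 2 genes, with a median of -0.13. Of these, 19 lay around PMAIP1, the gene of the BH3-only protein NOXA. Neighbouring peaks of 1 gene are not independent, so the shares of these lists describe few loci. The strongest apoptosis peak, 32.4 kb from PMAIP1, read 102 and 106 CPM in DMSO and 87.2 and 84.5 CPM at 500 nM, and one near BCL2A1 read 65.5 and 57.0 CPM and 56.3 and 55.3 CPM. Stress and hypoxia genes had 18 tested far peaks around 3 of 15 genes, 12 of them around DDIT4, with a median of -0.05. The strongest of these, 14.8 kb from DDIT4-AS1 at the mTORC1 inhibitor gene DDIT4, read 56.6 and 63.8 CPM in DMSO and 49.4 and 53.6 CPM at 500 nM, and one near HMOX1, the haem oxygenase gene, read 22.5 and 16.2 CPM and 12.6 and 13.7 CPM. Plasma cell genes had 3 far peaks, all around PRDM1, the BLIMP1 gene, and the strongest read 44.6 and 50.5 CPM in DMSO and 48.6 and 53.8 CPM at 500 nM. The genes of the Jumonji demethylases, the enzymes that JIB-04 inhibits, had 6 far peaks, around KDM4B, KDM4C and KDM8, of which 2 were tested; the one near KDM4C read 5.98 and 9.23 CPM in DMSO and 10.4 and 7.04 CPM at 500 nM.

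Far peaks were often close to one another. Joining those separated by at most 12.5 kb gave 2637 groups, of which 1420 were single peaks. The 701 groups of 3 or more held 3837 far peaks (61.0%). Summed over each group, both 500 nM libraries were below both DMSO libraries in 283 of the 701 (40.4%) and above both in 121 (17.3%). Peaks inside genes without H3K4me3 and under 8000 bp, joined in the same way, gave 3101 such groups, of which 32.2% were below and 22.0% above. Among the 73 groups of 10 or more, 46 were below (63.0%), 8 were above (11%), and the median log2 ratio of 500 nM to DMSO was -0.16. The 475 such groups inside genes gave 41.3%, 20.6% and -0.07. The 2 kinds of group were set side by side with no test. A sum over many peaks has less counting error than a single peak, so these counts are not comparable with those over single peaks.

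**Figure D5:**
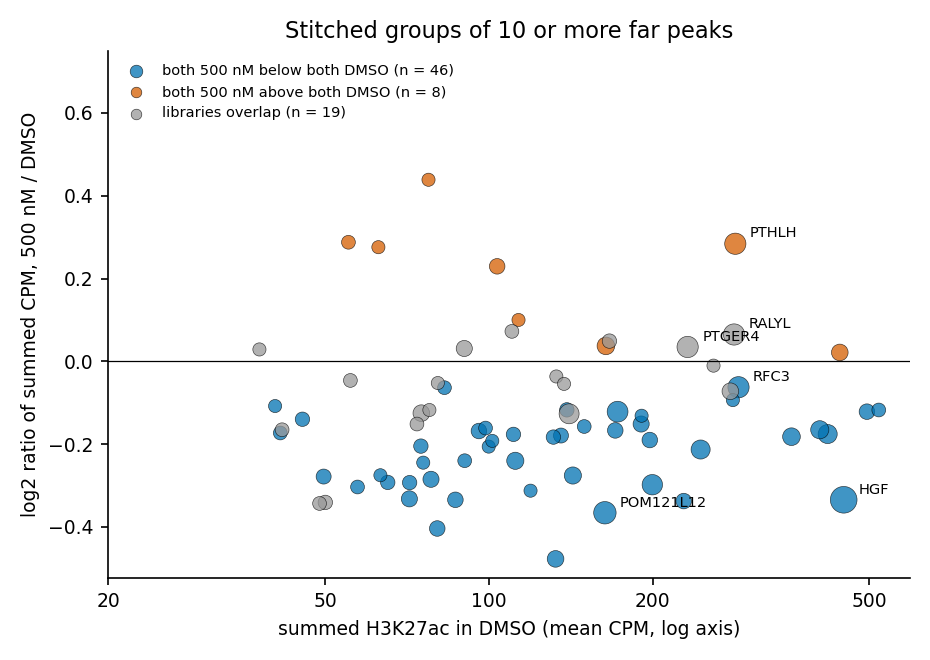
Each point is 1 of the 73 groups of 10 or more far peaks: summed H3K27ac in DMSO (mean CPM, log axis) against the log2 ratio of the 500 nM mean to the DMSO mean, with point area by number of peaks and the largest groups named by the nearest protein-coding gene. The HGF group, the largest, lies at -0.33 and the PTHLH group at 0.28.

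The largest group had 41 far peaks over 124 kb at chr7:81782837-81907307, 12.8 kb from HGF, the hepatocyte growth factor gene. Its summed H3K27ac was 484 and 414 CPM in DMSO, 473 and 352 CPM at 150 nM and 360 and 352 CPM at 500 nM. Of its 36 tested peaks, 32 were below 0, where the share over all tested far peaks was 60.4%. Neighbouring peaks of 1 locus are not independent of one another. No single peak of the group was called, and the second 150 nM library was as low as the 500 nM ones. The group of 29 at chr7:52482031-52587285, 448 kb from POM121L12, showed the same order, with 176 and 151 CPM, 170 and 128 CPM, and 127 and 127 CPM. Of the 4 groups with 26 far peaks, that near RFC3, a clamp loader subunit gene, was at 289 and 287 CPM in DMSO and 281 and 270 CPM at 500 nM. The group near RALYL had 305 and 259 CPM and 298 and 292 CPM, and the one 174 kb from PTGER4 had 240 and 223 CPM and 232 and 244 CPM, so their groups overlapped. The group at chr12:27847664-27920963, 37.1 kb from PTHLH, the parathyroid hormone-like hormone gene, was higher, with 291 and 277 CPM in DMSO, 312 and 258 CPM at 150 nM and 344 and 347 CPM at 500 nM. It holds 1 called rise, chr12:27859219-27866209, at 111 and 104 CPM in DMSO, 120 and 104 CPM at 150 nM and 142 and 145 CPM at 500 nM (0.42, SE 0.10, adjusted p = 0.0154). Of the 23 rises called at 500 nM, 14 lay in groups of 3 or more, as did 10 of the 13 falls. The IKZF1, TNFAIP3 and PTHLH peaks were picked for mention after their values were seen.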

How the data were processed

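H3K27ac and H3K4me3 ChIP-seq of OCI-Ly1 cells was used, with 2 libraries of each mark in each of the 3 treatments. The deposited tables hold raw read counts per consensus peak, made by the authors with featureCounts 2.0.1 at a minimum overlap fraction of 0.2 without strand, per the file headers. Trim Galore 0.6.7, BWA 0.7.17-r1188, Picard 2.27.4 and MACS2 2.2.7.1 on GRCh38 stand in the submitters' processing notes. The headers set a paired-read option, while the labels' protocols give 50 bp single reads. Input and H3K9 libraries were not used here.

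Peaks were classed with the RefSeq GRCh38.p14 gene table, and a gene-end peak is one whose distance to a gene's start or end is at most 1000 bp. Counts of all H3K27ac peaks were fitted with edgeR 4.0.16 (filterByExpr, TMM, quasi-likelihood F test), all 6 libraries together, with Benjamini-Hochberg adjustment over the 54037 tested peaks. H3K4me3 was fitted likewise over 20402 peaks. CPM use TMM-scaled library sizes. The fit was tested on simulated data. The rule for named peaks took the 10, 5 and 3 largest called changes per direction and comparison, for 150 nM against DMSO the smallest p, the strongest and most distant far peaks, the largest groups, and the 2 strongest per gene list. A few items that the rule or the marker lists cover are not reported here. The far peaks and the lists were chosen with earlier results of these data known. Alternatives were DESeq2 1.42.0, other scalings and filters, a replicate block, leaving out each library and a term for the contig split. Same-numbered libraries did not deviate together in all pairs (correlations 0.134, 0.00350 and 0.0589), so numbers were not taken to pair them. The H3K4me3 libraries at 150 nM differed by less than sampling noise (chi-square per degree of freedom 0.919), as did the first DMSO and first 150 nM libraries (0.947), and all were kept. Counting error alone sets a floor for peaks of a few reads.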

Additional observations from a re-analysis of the deposited data

How the results depend on the processing

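Far peaks called at 500 nM against DMSO (36) numbered 37, 36 and 35 with DESeq2 size factors, total counts and loess offsets, and 46 with no filter. They numbered 186 (4.19%, with 4.12% over all peaks) when the 4 libraries of the comparison were fitted alone and 93 (1.92%, with 2.36%) with the contig split as a term. At a mean count of at least 50 there were 22 (2.06%, with 1.56%). They numbered 4 with DESeq2, 12 at an adjusted p under 0.01, 6 at 50 kb or more from genes and 20 under 2000 bp in length. For 500 nM against 150 nM (66) the counts were 29 (0.638%, with 0.837% over all peaks) with 4 libraries alone and 23 (2.16%, with 1.86%) at a mean count of 50. They were 9 (0.185%, with 0.363%) with DESeq2, 25 at the stricter p and 14 at 50 kb or more. The labels give the groups the same replicate numbers. A replicate block gave 87 (1.79%, with 2.13% over all peaks) and 117 calls (2.41%, with 2.19%) in these comparisons and 0 for 150 nM against DMSO. All 36 and all 66 were among them. Leaving out 1 library gave 6 to 160, 18 to 184 and 0 to 35 calls. The median of far peaks minus that of all peaks then ran from -0.135 to -0.0480 for 500 nM against DMSO, from -0.146 to 0.0368 for 150 nM against DMSO and from -0.150 to 0.0391 between the doses, so only the first kept its sign. The contig term took the first to -0.157. The contig term was chosen after seeing the data, as was leaving out genes with scaffold coordinates, which gave 6293 far peaks. The cause of these changes was not tested. Of the 30 named calls, DESeq2 kept 3, lost 16 and gave 11 no adjusted p; leaving out 1 library lost 75 of 180 calls. H3K4me3 log2 fold changes near 0 changed sign 16 times when 1 library was left out, at gene ends near named far peaks. For 500 nM against DMSO they ran from -0.261 to 0.0666 (chromosome 8, far peak at 37310353), -0.125 to 0.0178 (NAMPT) and -0.00153 to 0.330 (the far peak at 145483607). Between the doses they ran from -0.0337 to 0.0343 (PGRMC1) and -0.0557 to 0.109 (chromosome 14, 83357164). For 150 nM against DMSO they ran from -0.0134 to 0.169 (ZNF815P), -0.942 to 0.209 (CITED2 far peak), -0.157 to 0.109 (145483607), -0.0473 to 0.0262 (CREG1) and -0.0626 to 0.00838 (PGRMC1).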
